A study of Mus musculus with 4 samples.

Results

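The T cell receptor variable genes (V genes) of the alpha chain (Trav) and the beta chain (Trbv) were described in T cells of mouse pancreatic tumours. All 165 genes whose symbol starts with Trav or Trbv were taken from the 33696 genes of the count tables, 130 of them Trav and 35 Trbv. T cells were the cells in which at least 2 of Cd3d, Cd3e, Cd3g, Trac, Trbc1 and Trbc2 were detected. After removal of cells that also held markers of another class, these were 5158 of 55090 deposited cells, 1214 in the untreated library, 589 in the STING agonist library, 2000 in the LTbR agonist library and 1355 in the combination library.

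The tumours were subcutaneous syngeneic KPC tumours, from a line of pancreatic cancer cells that carries the P53 LSL.R172H/+ allele with Pdx-Cre, grown in young adult male C57BL/6 mice. The STING agonist ADU-S100 was injected into the tumour, the LTbR agonist was an antibody given into the peritoneum, the combination was both, and the controls were untreated. Tumours of several mice were pooled within each group and sorted for CD45, so a group was 1 library and the mouse of origin of a cell was not kept. Differences between treatments therefore carry no test, and their intervals (95%, exact binomial unless named otherwise) cover counting error only.

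A T cell assembles its receptor by joining 1 V gene to downstream gene segments at each of the alpha and beta loci, and the joined exon is transcribed with the constant gene Trac, Trbc1 or Trbc2. Daughter cells inherit the rearrangement, so cells of a clone carry the same V gene on each chain, whereas unrelated naive cells draw on many V genes. CD4 T cells recognise peptides on class II and CD8 T cells on class I molecules of the major histocompatibility complex. A shared pair of V genes does not make cells a clone, because the junction was not read here.

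All 165 members matched the mouse annotation GENCODE M21 by identifier, Trbv on chromosome 6 and Trav on chromosome 14. The mouse Trav locus holds a duplicated block, so many Trav genes have near copies that carry d or n in the name. The gene counted most often on the alpha chain was Trav14d-3-dv8. It was pooled with its copies Trav14n-3 and Trav14-3, and the pooled gene is called Trav14-3 below. The last 300 bases of the 3 germline V exons are shown, 5′ to 3′, with the positions at which the copies differ in capitals.
Trav14d-3-dv8: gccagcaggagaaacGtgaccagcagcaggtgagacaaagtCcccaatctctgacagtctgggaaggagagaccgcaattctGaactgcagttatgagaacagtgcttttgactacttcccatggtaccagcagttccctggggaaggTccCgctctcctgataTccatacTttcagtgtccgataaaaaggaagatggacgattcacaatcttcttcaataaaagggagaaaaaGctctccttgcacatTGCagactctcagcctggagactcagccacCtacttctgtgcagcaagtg
Trav14n-3: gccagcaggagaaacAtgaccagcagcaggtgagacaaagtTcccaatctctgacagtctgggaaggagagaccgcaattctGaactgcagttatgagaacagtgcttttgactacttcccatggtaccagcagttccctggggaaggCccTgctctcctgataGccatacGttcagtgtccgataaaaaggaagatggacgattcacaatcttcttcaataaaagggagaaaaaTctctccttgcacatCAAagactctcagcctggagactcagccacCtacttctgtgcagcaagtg
Trav14-3: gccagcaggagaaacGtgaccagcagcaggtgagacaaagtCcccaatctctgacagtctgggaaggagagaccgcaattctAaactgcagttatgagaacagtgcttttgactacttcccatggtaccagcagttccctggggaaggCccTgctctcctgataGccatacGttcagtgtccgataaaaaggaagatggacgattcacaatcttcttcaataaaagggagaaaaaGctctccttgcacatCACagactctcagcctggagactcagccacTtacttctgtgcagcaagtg

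The copies differed at 6 to 10 of these bases, and Trav14d-3-dv8 held 426 UMIs (unique molecular identifiers, 1 per captured transcript), Trav14n-3 27 and Trav14-3 14. Copies with identical V exons lose their reads, since a read that maps to several genes is not counted. Of the 110 Trav genes with a coding sequence, 36 had a V exon identical to that of another member, and these held 4 of the 1780 Trav UMIs (0.225%). None of the 22 Trbv genes with a coding sequence had an identical copy. Alpha chain shares below therefore leave out whatever cells used the 36 genes. On the beta chain, the Trbv13 family gave the leading gene of the untreated library (Trbv13-3) and the second gene of the combination library (Trbv13-1), so its members are shown over the whole V exon of 294 bases, with capitals where the 3 genes differ.
Trbv13-1: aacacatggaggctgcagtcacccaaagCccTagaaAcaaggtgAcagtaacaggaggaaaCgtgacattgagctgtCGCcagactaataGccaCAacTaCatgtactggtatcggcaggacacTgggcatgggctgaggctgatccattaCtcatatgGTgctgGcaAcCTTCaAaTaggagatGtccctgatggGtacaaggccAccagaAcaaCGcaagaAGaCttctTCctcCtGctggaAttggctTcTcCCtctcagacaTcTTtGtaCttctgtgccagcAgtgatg
Trbv13-2: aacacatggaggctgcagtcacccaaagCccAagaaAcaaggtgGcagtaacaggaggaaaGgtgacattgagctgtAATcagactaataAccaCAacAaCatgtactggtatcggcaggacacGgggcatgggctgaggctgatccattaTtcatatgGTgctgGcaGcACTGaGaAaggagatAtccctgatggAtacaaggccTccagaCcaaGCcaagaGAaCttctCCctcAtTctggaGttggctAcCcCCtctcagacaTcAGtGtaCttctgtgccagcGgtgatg
Trbv13-3: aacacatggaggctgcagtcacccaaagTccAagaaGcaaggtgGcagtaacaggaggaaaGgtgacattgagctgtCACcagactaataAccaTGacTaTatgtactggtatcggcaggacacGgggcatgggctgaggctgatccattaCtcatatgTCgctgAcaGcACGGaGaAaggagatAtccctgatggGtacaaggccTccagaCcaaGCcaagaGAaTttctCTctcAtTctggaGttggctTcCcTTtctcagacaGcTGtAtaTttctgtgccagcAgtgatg

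These 3 differed at 24 to 41 bases. For the other leading genes the last 60 bases of the V exon are given, with capitals from the codon of the conserved cysteine, where the third complementarity-determining region, the loop that contacts the peptide, begins.
Trav16: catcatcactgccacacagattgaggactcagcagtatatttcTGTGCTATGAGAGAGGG
Trbv3: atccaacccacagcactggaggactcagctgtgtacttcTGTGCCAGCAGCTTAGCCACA
Trbv19: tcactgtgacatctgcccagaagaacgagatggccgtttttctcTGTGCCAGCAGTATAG
Trbv29: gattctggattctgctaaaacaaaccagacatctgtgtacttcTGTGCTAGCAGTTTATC

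In these 4 germline genes, 16 to 21 bases run from that codon to the end of the V exon. How many of them a joined receptor keeps was not read. All sequences are those of the GENCODE M21 transcripts (GRCm38). Of the 33696 gene identifiers of the files 1735 were not in M21, so the counts were made with another annotation, and the sequences, the identity of V exons and the gene types given here are those of M21.

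Beta chain genes were read in more cells than alpha chain genes. A cell was called for the V gene with most UMIs, and a tie was no call. A Trbv gene was called in 60.2% of T cells of the untreated library (731 of 1214 cells, interval 57.4 to 63.0%), 52.1% with the STING agonist (48.0 to 56.2%), 36.6% with the LTbR agonist (34.5 to 38.8%) and 32.0% with the combination (29.6 to 34.6%). For Trav the shares were 30.8%, 34.1%, 13.4% and 11.4%. Both libraries with the LTbR agonist were low on both chains. With every cell thinned to 1000 UMIs and gated again, Trbv was called in 32.7%, 32.6%, 19.2% and 20.02% of the 823, 341, 1263 and 889 cells that remained, so both libraries with the LTbR agonist were also low at equal depth. Of the cells lost, 19, 5, 69 and 155 had fewer UMIs than that, and the others no longer passed the gate.

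V gene UMIs in cells that should lack them were rare. In macrophages outside the T cell gate, with median depths of 4420 to 9110 UMIs against 1999 to 4314 in T cells, 0.147 to 0.387% of cells held a Trbv UMI. In neutrophils, with median depths of 1243 to 2597 UMIs, 0.839%, 0.210%, 0.375% and 0.521% did. In B and plasma cells it was 0 of 47, 0 of 42, 0 of 345 and 0 of 447 cells. With 3 cells taken as the limit of a count of 0, this allows 6.38%, 7.14%, 0.870% and 0.671%. The shares of T cells with a call were far above those of macrophages and neutrophils in every library. The gate also admitted cells that need not carry these receptors. A Cd247 UMI, a receptor chain the gate did not use, was found in 73.0%, 70.3%, 67.8% and 54.7% of gated cells. Trdc, the constant gene of the delta chain, was found in 9.31%, 10.7%, 10.95% and 5.61%, and at least 3 of 7 natural killer cell markers in 9.31%, 16.3%, 15.4% and 5.24%.

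All 22 functional Trbv genes were found, 20 of them in every library, whereas 3 of the 13 Trbv pseudogenes had a UMI. Functional genes held 99.6% of the 6085 Trbv UMIs. Of the Trav genes, 77 of 130 had a UMI and 37 were found in all 4 libraries, and the 130 names pooled to 58 genes. A second Trav gene was seen more often than a second Trbv gene in the untreated and LTbR agonist libraries, while the intervals of the chains overlapped in the combination library and, with the STING agonist, only among cells with exactly 2 UMIs. Among cells with exactly 2 UMIs of the chain, these belonged to 2 genes in 30.5%, 15.6%, 34.1% and 28.0% of cells for Trav, and in 8.67%, 11.8%, 10.4% and 12.9% for Trbv. Among cells with at least 2 UMIs the shares with more than 1 gene were 35.8%, 38.7%, 41.9% and 29.0% for Trav and 19.3%, 20.4%, 15.1% and 16.8% for Trbv. Both alpha alleles of a T cell often rearrange, while the beta locus is under allelic exclusion.

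V gene UMIs per constant gene UMI were lower in both libraries with the LTbR agonist. The constant genes Trac, Trbc1 and Trbc2 are 3 of the 6 genes that chose the T cells, so their level is set in part by that choice and the ratios are a description. Trbv UMIs per Trbc1 and Trbc2 UMI were 0.864 (interval 0.820 to 0.911) in the untreated library, 0.843 (0.779 to 0.912) with the STING agonist, 0.259 (0.244 to 0.274) with the LTbR agonist and 0.345 (0.318 to 0.374) with the combination. Trav UMIs per Trac UMI were 0.289, 0.366, 0.103 and 0.129 in the same order. The ratio split the libraries in the same way within CD4 cells (Trbv 1.01, 1.44, 0.353 and 0.365) and within CD8 cells (0.993, 0.935, 0.311 and 0.407). Trbc1 and Trbc2 stood at 548, 466, 760 and 704 CPM (UMIs of a gene per 1000000 UMIs of the summed cells), and Trac at 469, 412, 482 and 474. Whether this came from the treatment or from the library was not tested, and with 1 library per group they cannot be told apart.

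**Figure D1:**
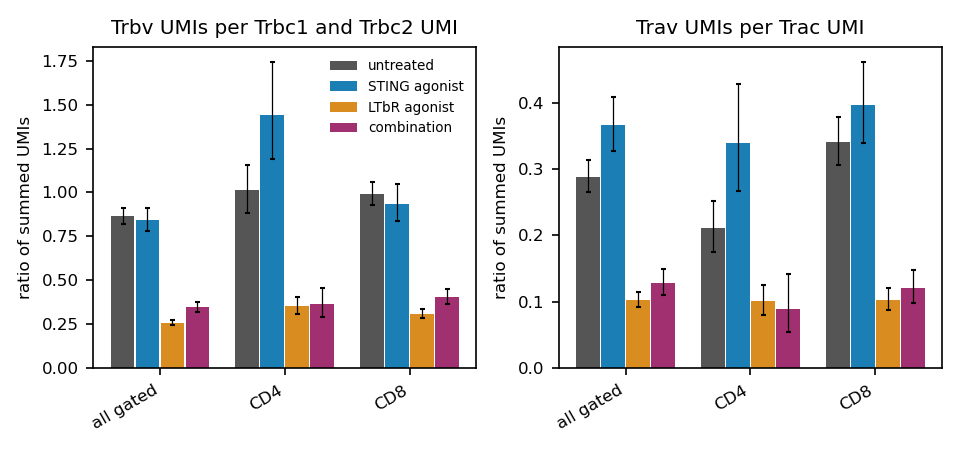
Bars give the ratio of summed V gene UMIs to summed constant gene UMIs (y axis, no unit) in all T cells, CD4 cells and CD8 cells of the 4 libraries, for the beta chain (left) and the alpha chain (right), and error bars are 95% intervals for counting error. The LTbR agonist and combination bars are the lowest in every set, for example 0.259 and 0.345 against 0.864 and 0.843 for the beta chain in all T cells.

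T cells were divided by their own co-receptor UMIs. CD8 cells (a Cd8a or Cd8b1 UMI and no Cd4 UMI) numbered 501, 209, 681 and 643, and CD4 cells (the reverse) 249, 113, 358 and 153. The other T cells, mostly with no co-receptor UMI, were not assigned. The 6 Trbv genes with most called cells were Trbv13-3 (235 cells), Trbv3 (230), Trbv19 (201), Trbv29 (173), Trbv13-2 (164) and Trbv13-1 (155).

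Each library had its own leading Trbv gene in CD8 cells, apart from Trbv3, which led in 2 of them. Trbv13-3 led in the untreated library with 32.3% of Trbv called CD8 cells (128 of 396, interval 27.7 to 37.2%), and was at 4.29% with the STING agonist, 7.02% with the LTbR agonist and 1.49% with the combination. In CD4 cells Trbv13-3 was at 1.90%, 5.13%, 10.5% and 10.9%. Its share was thus higher in CD8 than in CD4 cells of the untreated library and lower in CD8 than in CD4 cells of the other 3 libraries. The intervals of CD4 and CD8 cells were apart only in the untreated and combination libraries, the latter with 6 of 55 and 4 of 268 cells.

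Trbv19 led with the LTbR agonist at 19.6% of CD8 cells (67 of 342, 15.5 to 24.2%), against 3.79% untreated, 9.29% with the STING agonist and 6.72% with the combination. Trbv3 led with the combination at 25.0% (67 of 268, 19.9 to 30.6%), and was at 8.59%, 12.1% and 10.5% in the untreated, STING agonist and LTbR agonist libraries. Trbv13-1 was next in the combination library at 23.1% (62 of 268, 18.2 to 28.6%), against 5.30%, 5.00% and 3.51% in the others. The gene that stood out therefore differed from pool to pool, and the intervals of each leader lay above those of the same gene elsewhere for Trbv13-3, Trbv19 (beside the STING agonist, 5.04 to 15.4%, only just), Trbv3 in the combination library and Trbv13-1.

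Trbv29 was more evenly spread over CD8 cells, at 15.2%, 11.4%, 11.4% and 6.72% of called cells. In CD4 cells it was called in 6 of 158, 2 of 78, 5 of 143 and 0 of 55 cells. The last allows a share of up to 5.45% with 3 cells taken as the limit. Trbv13-2 showed the opposite split, with 2.78%, 2.86%, 5.56% and 4.85% of CD8 cells and 8.86%, 8.97%, 14.7% and 20% of CD4 cells. Trbv29 was the lower and Trbv13-2 the higher gene in CD4 cells of every library.

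**Figure D2:**
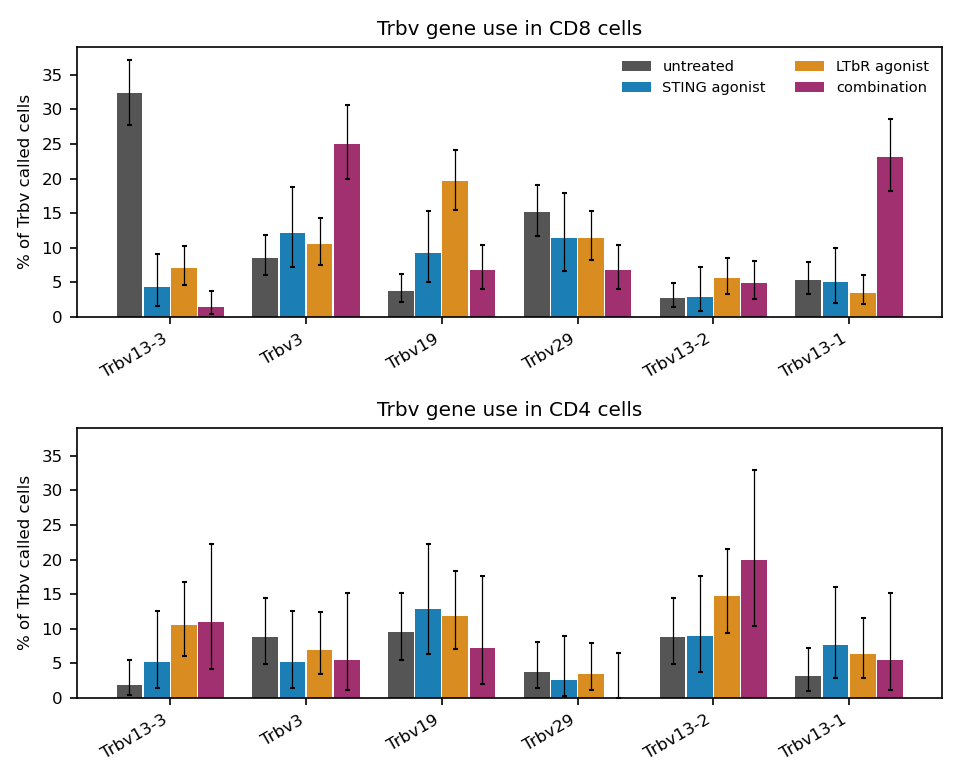
Bars give the share of Trbv called cells (y axis, percent) for the 6 Trbv genes with most cells in CD8 cells (top) and CD4 cells (bottom) of the 4 libraries, with exact binomial 95% intervals. Trbv13-3 of the untreated library (32.3%), Trbv19 of the LTbR agonist library (19.6%) and Trbv3 and Trbv13-1 of the combination library (25.0 and 23.1%) stand out in CD8 cells. The highest CD4 bar is that of Trbv13-2 in the combination library, which rests on 11 of 55 cells.

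Concentration of the beta chain followed from these leaders. The 5 leading Trbv genes held 74.5% of called CD8 cells in the untreated library (interval 69.9 to 78.7%), 50% with the STING agonist (41.4 to 58.6%), 61.1% with the LTbR agonist (55.7 to 66.3%) and 68.3% with the combination (62.4 to 73.8%). In CD4 cells they held 49.4%, 46.2%, 54.6% and 54.6%. The effective number of genes, which is the number of equally used genes that would give the same chance that 2 drawn cells share a gene, was 6.35, 15.6, 10.3 and 7.33 in CD8 cells and 13.7, 17.2, 12.7 and 12.9 in CD4 cells. CD8 cells of the STING agonist library were thus spread about as widely as CD4 cells, while those of the untreated and combination libraries were the most concentrated. T cells with no co-receptor UMI resembled CD4 cells, with 16.3, 15.3, 15.4 and 14 effective genes. At an equal 50 cells, 12.4, 17.3, 14.2 and 13.8 Trbv genes would be expected in CD8 cells and 15.1, 16.9, 14.6 and 15.6 in CD4 cells.

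On the alpha chain a single gene led CD8 cells in every library. Trav14-3 was called in 46.9% of Trav called CD8 cells of the untreated library (97 of 207, interval 39.9 to 53.9%), 36.6% with the STING agonist (34 of 93, 26.8 to 47.2%), 34.9% with the LTbR agonist (44 of 126, 26.7 to 43.9%) and 29.6% with the combination (24 of 81, 20 to 40.8%). In CD4 cells it was called in 8 of 76, 5 of 50, 6 of 58 and 2 of 19 cells, or 10.5%, 10.0%, 10.3% and 10.5%. The share was higher in CD8 than in CD4 cells of each library. In the combination library, with 19 Trav called CD4 cells, the intervals of CD4 and CD8 cells overlapped. The CD8 intervals of the 4 libraries overlapped. Members with dv in the name, among them copies of Trav14-3 and Trav16, also serve the delta chain, so such a call alone does not show an alpha chain. Of the Trav called cells with a Trdc UMI, 12 of 18, 9 of 11, 3 of 5 and 3 of 4 had a gene of this kind. None of the 97, 34, 44 and 24 CD8 cells with Trav14-3 held a Trdc UMI, and with Trdc cells left out, an alternative chosen after seeing the data, the shares were 47.1%, 37.4%, 34.9% and 29.6%. Trav14-3 was also the leading Trav gene of CD4 cells in all libraries but the combination.

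Trav16 came second over all T cells, with 89 called cells. It was called in 22, 9, 14 and 21 CD8 cells, or 10.6%, 9.68%, 11.1% and 25.9% of those with a Trav call, and in 1, 3, 0 and 0 CD4 cells. Its share was highest with the combination, where the interval (16.8 to 36.9%) overlapped those of the STING agonist and LTbR agonist libraries (up to 17.6 and 17.9%) and not that of the untreated library (up to 15.6%). The next genes by cells were Trav13-1 (42), Trav13-2 (35), Trav12-2 (32) and Trav3-3 (32), and of these Trav13-2 reached 7.73% of CD8 cells in the untreated library (16 of 207).

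The effective number of Trav genes in CD8 cells was 4.12, 6.49, 7.1 and 6.38, against 24.6, 29.2, 31.2 and 15.5 in CD4 cells, where the last rests on 19 cells. The alpha chain of CD8 cells was thus concentrated in all 4 libraries, including that of the STING agonist, whose beta chain was not. Chains of known invariant T cells were rare among the calls. Trav11, the alpha gene of invariant natural killer T cells, and its copy Trav11d had no UMI. The only call of the pooled gene, in 1 cell of the combination library, came from the pseudogene copy Trav11n. Trav1, that of mucosal-associated invariant T cells, was called in 8, 2, 1 and 1 cells, and the 8 of the untreated library were all CD8 cells. The 1 cell of the combination library, assigned to neither the CD4 nor the CD8 cells, held a UMI of Zbtb16, the factor that marks such cells, and the others none. No UMI of Traj33, the joining gene of these chains, was found in the 12 cells.

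**Figure D3:**
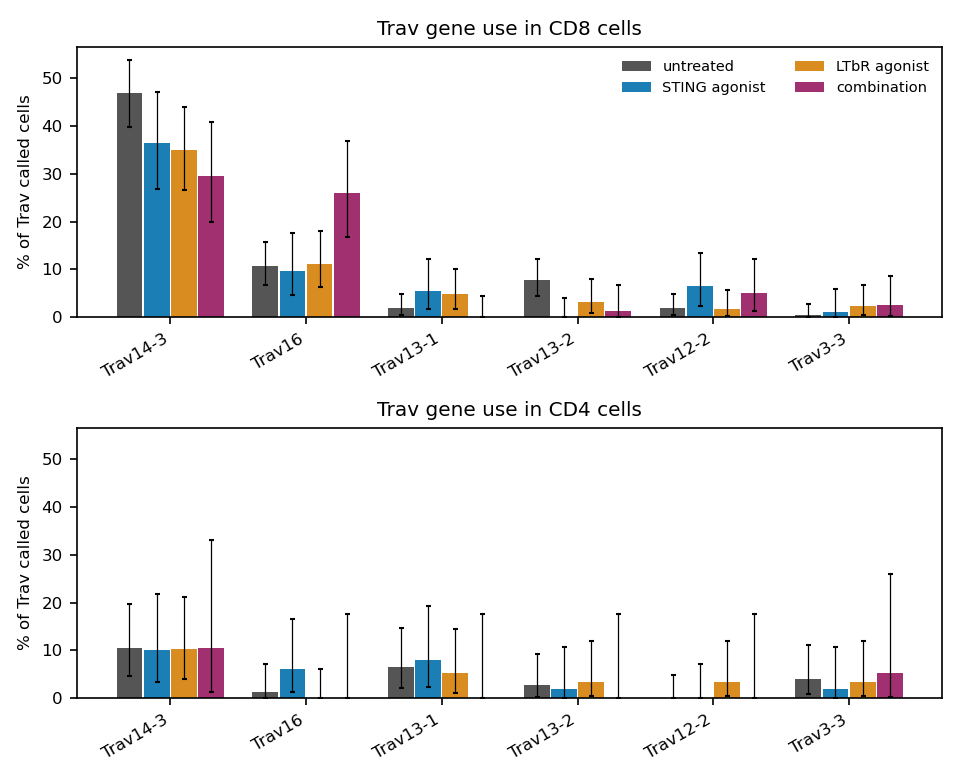
Bars give the share of Trav called cells (y axis, percent) for the 6 Trav genes with most cells, copies pooled, in CD8 cells (top) and CD4 cells (bottom) of the 4 libraries, with exact binomial 95% intervals. Trav14-3 is the highest bar in CD8 cells of every library (29.6 to 46.9%) and stands at 10.0 to 10.5% in CD4 cells.

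The contrast between CD4 and CD8 cells could be tested, with the 4 libraries as replicates, on UMIs summed over the cells of each library and lineage. The labels give these libraries only as separate samples of different treatments, so the p-values measure the spread of the contrast between them. Of the 165 members, 15 passed the filter on low counts, and 9 of these passed the test, beside 22.2% of all 9185 genes tested (edgeR's quasi-likelihood test with the library as a block, Benjamini-Hochberg adjustment over all genes, threshold 0.05). Of the 9, 5 were higher in CD4 cells (12.4% of all genes were) and 4 in CD8 cells (9.79%). Members can pass the filter through the lineage in which they are high, which favours calls, so the 9 of 15 is not read against the share of all genes. With no filter 11 (higher in CD4 cells) and 8 (higher in CD8 cells) of 96 members were called. The share of all genes called with no filter is not given, so nothing is read from these counts. The co-receptor genes themselves chose the cells and are no finding.

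The 4 V genes higher in CD8 cells were Trbv29, Trav14d-3-dv8, Trbv12-2 and Trbv3. Trbv29 stood at 13.3, 8.34, 8.05 and 0 CPM in CD4 cells and at 93.4, 71.3, 33.2 and 18.1 in CD8 cells, in the order untreated, STING agonist, LTbR agonist and combination. It was lower in CD4 cells of each library, and the groups did not overlap. The log2 difference, CD4 minus CD8, was -2.67 (SE 0.27, edgeR adjusted p = 1.35e-05).

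Trav14d-3-dv8 stood at 4.09, 4.17, 4.83 and 5.53 CPM in CD4 cells and at 73.7, 80.5, 20.5 and 16.4 in CD8 cells. The CD4 levels rest on 4, 2, 6 and 2 UMIs, and every CD8 level was higher. The log2 difference was -3.25 (SE 0.36, edgeR adjusted p = 3.42e-05). For Trbv12-2 the levels were 5.11, 12.5, 4.83 and 5.53 in CD4 cells and 46.0, 41.1, 35.9 and 9.93 in CD8 cells, a log2 difference of -2.50 (SE 0.32, edgeR adjusted p = 0.000113). Trbv12-2 was lowest among CD8 cells in the combination library, where it also lay under its level in CD4 cells of the STING agonist library. Trbv3 fell by 1.15 on the log2 scale in CD4 cells (SE 0.21, edgeR adjusted p = 0.0014), from 51.9, 79.6, 26.3 and 75.9 in CD8 cells to 33.7, 29.2, 11.3 and 22.1 CPM. It was lower in CD4 cells within each library, although the levels of different libraries overlapped. Trbv3 did not pass when each cell with a UMI of the gene counted once (-0.76).

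Higher in CD4 cells were Trbv31, Trbv13-2, Trbv20, Trbv26 and Trbv1. Trbv31 stood at 36.8, 41.7, 18.5 and 30.4 CPM in CD4 cells and at 4.15, 6.71, 2.39 and 9.34 in CD8 cells, so the groups did not overlap (log2 difference 2.61, SE 0.31, edgeR adjusted p = 5.2e-05). Trbv13-2 stood at 33.7, 54.2, 27.4 and 47.0 against 19.0, 15.9, 10.3 and 11.7, again with no overlap (1.41, SE 0.24, edgeR adjusted p = 0.000836). Both were higher in CD4 cells of all 4 libraries.

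Trbv20 stood at 42.9, 52.1, 12.1 and 13.8 CPM in CD4 cells and at 0.692, 15.9, 1.37 and 4.67 in CD8 cells (log2 difference 2.86, SE 0.51, edgeR adjusted p = 0.00137). Trbv20 was higher in CD4 cells within each library, although the CD8 level of the STING agonist library exceeded the CD4 levels of 2 others. In the untreated library Trbv20 was the leading Trbv gene of CD4 cells with a UMI of Foxp3, the factor of regulatory T cells, at 25.0% of their calls (13 of 52, interval 14 to 39.0%) against 4.72% of the other CD4 cells (5 of 106, 1.55 to 10.7%). This was chosen after its values were seen, and with the STING agonist, LTbR agonist and combination Trbv20 was called in 1 of 21, 0 of 17 and 0 of 5 such cells.

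Trbv26 stood at 32.7, 22.9, 6.44 and 16.6 CPM in CD4 cells and at 1.38, 15.1, 2.05 and 2.92 in CD8 cells (log2 difference 2.24, SE 0.53, edgeR adjusted p = 0.00865). Trbv1 stood at 83.8, 22.9, 31.4 and 24.9 against 13.5, 25.2, 19.5 and 19.9 (1.15, SE 0.37, edgeR adjusted p = 0.0413). Trbv26 was higher in CD4 cells of every library, and Trbv1 in all but that of the STING agonist. Without the untreated library the difference was 1.33 for Trbv26 and 0.38 for Trbv1, and neither passed, and Trbv1 also did not pass without the LTbR agonist library (1.34), with DESeq2 (0.93) or when each cell with a UMI counted once (0.74). The remaining members did not pass. Trbv13-3, the leader of the untreated CD8 cells, had a log2 difference of -1.19 (SE 0.82, edgeR adjusted p = 0.347), since its direction was not the same in every library.

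Cells with both chains called showed the V genes in pairs. Among CD8 cells these numbered 172, 68, 81 and 45, and among CD4 cells 53, 36, 34 and 7. A pair was called repeated when at least 5 cells of the same library and lineage held it. Repeated pairs made up 60.5% of CD8 cells with both chains in the untreated library (104 cells, interval 52.7 to 67.8%), 13.2% with the STING agonist (9 cells, 6.24 to 23.6%), 35.8% with the LTbR agonist (29 cells, 25.5 to 47.2%) and 46.7% with the combination (21 cells, 31.7 to 62.1%). No CD4 pair was repeated in any library, and the most frequent was Trav7-5 with Trbv1 in 3 cells of the untreated library. The exact upper limits for a count of 0 are 6.72%, 9.74%, 10.3% and 41.0% of CD4 cells, although a repeated pair needs at least 5 cells. The number of cells differed between lineages and libraries, which bears on how many pairs can reach 5 cells. With cells thinned to 1000 UMIs, only 19, 6, 4 and 3 CD8 cells had both chains and no pair reached 5 cells.

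Trav14-3 took part in 2 of 5 repeated CD8 pairs of the untreated library, in 1 of 1 with the STING agonist, 3 of 3 with the LTbR agonist and 1 of 3 with the combination. Trav14-3 with Trbv13-3 was held by 44, 1, 1 and 0 CD8 cells, in the order untreated, STING agonist, LTbR agonist and combination. Trav14-3 with Trbv19 was held by 1, 1, 18 and 0 cells, and Trav14-3 with Trbv13-1 by 0, 1, 0 and 8 cells. Each of these 3 pairs was frequent in 1 library and in at most 1 cell of the others. There the counts were 1.48, 2.35 and 2.14 times the number that the separate shares of the 2 genes would give. Of the 104, 9, 29 and 21 CD8 cells in repeated pairs, 70, 9, 29 and 8 held Trav14-3 and 11, 0, 0 and 13 held Trav16, so Trav16 was the more frequent in the combination library.

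Other pairs were found across libraries. Trav14-3 with Trbv29 was held by 26, 9, 6 and 2 CD8 cells, which were 15.1%, 13.2%, 7.41% and 4.44% of cells with both chains, or 1.2, 2.24, 1.74 and 1.88 times the number that the separate shares of the 2 genes would give. It was called in 1 CD4 cell in all, with the STING agonist. Trav16 with Trbv3 was held by 11, 4, 4 and 8 CD8 cells, or 6.18, 4.32, 3.38 and 2.14 times that number, and by no CD4 cell. These, with Trav14-3 and Trbv15 (3, 1, 5 and 1 cells), were the 3 of 139 CD8 pairs found in all 4 libraries, whereas 114 pairs were found in 1 library.

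Among the 3 most frequent CD8 pairs of each library were also Trav13-2 with Trbv29, in 14 cells of the untreated library and in no cell of the others, and Trav16 with Trbv13-1, in 5 cells of the combination library and 1 of the untreated library, and Trav14-3 with Trbv4, in 4 cells of the STING agonist library and 2 of the untreated library. Trav6-6 with Trbv13-3, named after its values were seen, was held by 9 cells of the untreated library and 1 of the STING agonist library. The only pair of at least 5 cells that exceeded 5 times its expected number was Trav16 with Trbv3 in the untreated library. Joining (J) genes were rarely read, in 18 (alpha) and 17 (beta) of the 163 CD8 cells in repeated pairs. Of the Trav14-3 Trbv29 cells of the untreated library, 4 had an alpha J call, of 4 different genes, and 5 a beta J call, of 4 genes. A J UMI can also come from transcripts of unjoined segments, so these calls do not tell clones apart.

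**Figure D4:**
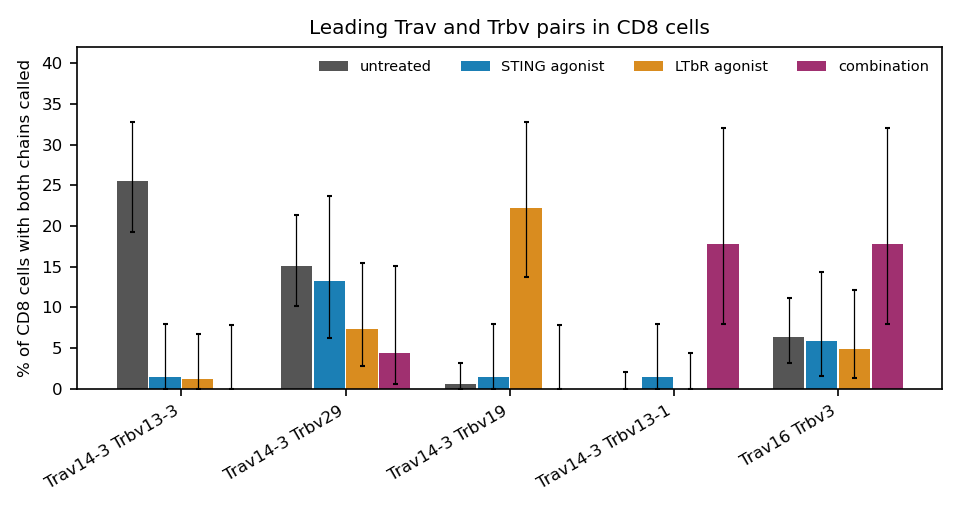
Bars give the share of CD8 cells with both chains called (y axis, percent) that held each of 5 pairs in the 4 libraries, with exact binomial 95% intervals. Trav14-3 with Trbv13-3 (25.6% untreated), Trbv19 (22.2% with the LTbR agonist) and Trbv13-1 (17.8% with the combination) each rise in 1 library, whereas Trav14-3 with Trbv29 and Trav16 with Trbv3 are present in all 4.

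Trbv3 and Trav14-3 were never called in the same CD8 cell. Both genes were picked for this comparison after the values of the pairs were seen. Trbv3 was the beta gene of 0 of 81, 0 of 21, 0 of 31 and 0 of 12 CD8 cells with Trav14-3, and of 17 of 91, 7 of 47, 8 of 50 and 12 of 33 CD8 cells with another Trav gene. The exact upper limits of these shares were 4.45%, 16.1%, 11.2% and 26.5%, against 18.7%, 14.9%, 16.0% and 36.4% of the other cells, whose own intervals began at 11.3%, 6.20%, 7.17% and 20.4%. The intervals thus did not overlap in the untreated library and overlapped in the other 3. Trbv3 was not alone in this, since Trbv1 and Trbv16 were also called in none of the CD8 cells with Trav14-3. With another Trav gene they were called in 1, 6, 5 and 1 (Trbv1) and 3, 5, 4 and 2 CD8 cells (Trbv16). Of the 17, 7, 8 and 12 Trbv3 cells with another Trav gene, 11, 4, 4 and 8 held Trav16. In summed UMIs, Trbv3 was at 0 in Trav14-3 cells of every library and at 142, 135, 39.7 and 126 CPM in cells with another Trav gene, at least 46.5-fold lower when 3 UMIs over all Trav14-3 cells are taken as the limit. This bound is 17.5-fold without the untreated library, and within single libraries it is 32.1-fold, 11.5-fold, 3.42-fold and 2.62-fold. This is a description of the same cells, and no test is given for it. By contrast Trbv29 was at 186, 260, 58.1 and 112 CPM in Trav14-3 cells and at 151, 26.4, 13.2 and 33 in the others. It was higher with Trav14-3 in every library. The log2 difference of 1.47 did not pass (SE 0.42, edgeR adjusted p = 0.0853), and passed without the untreated library (2.61), with DESeq2 (1.80) and with no filter (1.45).

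The state of the cells that shared V genes was compared next, by gene lists for naive and memory cells, inhibitory receptors and exhaustion, cytotoxic effectors, the cell cycle, receptor signalling and innate-like cells. CD8 cells of repeated pairs were first set against CD8 cells of other pairs of the same library, summed as above. Genes of naive and memory cells were lower in repeated pairs. Of the 12 listed, 9 were tested, and 8 were lower and none higher, beside 2.26% of all 4551 genes that passed and 1.58% that were lower. The median log2 difference was -2.53, against 0.01 over all genes tested.

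Lef1, a transcription factor of naive cells, stood at 10.7, 22.2, 64.7 and 37.9 CPM in repeated pairs and at 108, 155, 333 and 387 in other pairs (log2 difference -2.89, SE 0.28, edgeR adjusted p = 0.000391). Tcf7, which maintains naive and stem-like T cells, stood at 9.39, 0, 0 and 0 against 86.7, 251, 384 and 237 (edgeR adjusted p = 0.000812). Both genes were lower in repeated pairs of all 4 libraries, with no overlap. Ly6c2, a surface protein of memory cells (-2.99, SE 0.24), and Satb1, a chromatin organiser (-2.25, SE 0.26), were lower too. Ly6c2 did not pass when cells holding markers of another class were kept (-1.91).

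Of the inhibitory receptor and exhaustion genes, 2 of 12 were higher in repeated pairs. All 12 listed genes had a positive difference, with a median of 0.87, and 2 passing compares with 0.681% of all genes that were higher. Rgs16, an inhibitor of G protein signalling that T cells induce on activation, stood at 782, 1130, 868 and 707 CPM against 380, 425, 294 and 387 (log2 difference 1.22, SE 0.19, edgeR adjusted p = 0.0058). Havcr2, the inhibitory receptor TIM-3, stood at 417, 233, 566 and 354 against 197, 177, 118 and 187 (1.2, SE 0.27, edgeR adjusted p = 0.0425). Both were higher in repeated pairs of every library. Havcr2 did not pass without the untreated (1.24), LTbR agonist (0.83) or combination library (1.28) or with DESeq2 (1.19), and the count was 1 without any 1 of those and with DESeq2, and 9 without the STING agonist library, which had 9 cells in repeated pairs.

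None of the 11 cytotoxic genes and none of the 14 genes of receptor signalling tested passed, nor did any of 3 innate-like genes. Ube2c, a mitotic gene, was the 1 of 8 cell cycle genes that did, at 1.95 (SE 0.43, edgeR adjusted p = 0.0384). It did not pass without the combination library (1.94), with cells holding markers of another class kept (1.90) or without the largest pair of each library (1.32). Cells of repeated pairs were deeper, with median UMIs of 6462, 9782, 5766 and 3710 against 4911, 6461, 5172 and 2829. V genes define these groups and are no result in this fit.

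**Figure D5:**
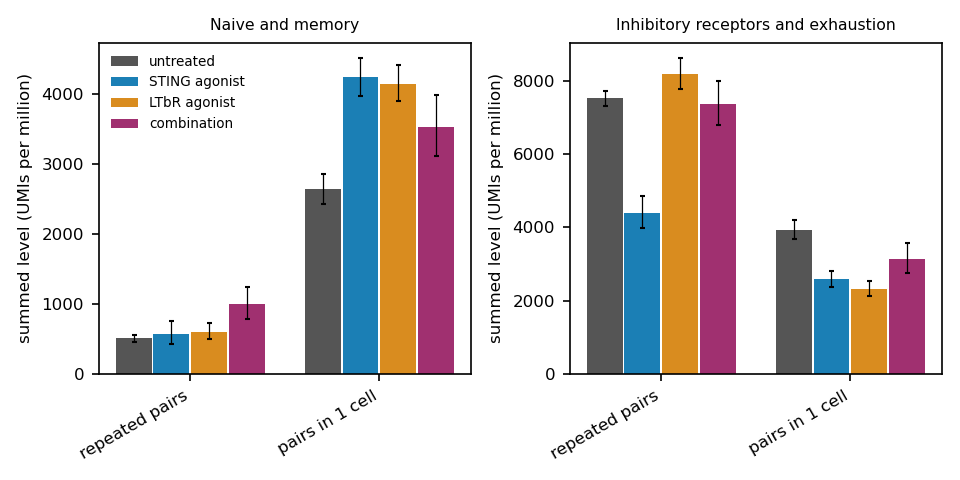
Bars give the summed level (y axis, CPM) of the 12 naive and memory genes (left) and the 12 inhibitory receptor and exhaustion genes (right) in CD8 cells of repeated pairs and of pairs held by 1 cell, in the 4 libraries, with Poisson 95% intervals for counting error. Repeated pairs are lower on the left (506 to 998 against 2642 to 4245) and higher on the right (4397 to 8190 against 2319 to 3929).

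CD8 cells with Trav14-3 were also set against CD8 cells with another Trav call, which needs no beta chain and gave 97, 34, 44 and 24 cells against 110, 59, 82 and 57. This contrast, and the genes named in it, were chosen after the values of the pairs were seen, and it shares cells with the one before. Of 11 naive and memory genes tested, 10 were lower and none higher, beside 3.65% of all 5372 genes that passed and 2.61% that were lower, with a median log2 difference of -2.14 against 0.01 over all genes. S1pr1, the receptor for egress from tissue, stood at 1.47, 0, 7.75 and 0 CPM with Trav14-3 and at 43.3, 52.8, 110 and 76.9 without (edgeR adjusted p = 0.000608). Tcf7 stood at 20.6, 38.9, 15.5 and 16.1 against 100, 317, 413 and 242 (log2 difference -3.22, SE 0.33, edgeR adjusted p = 0.000569). Both genes were lower with Trav14-3 in every library, with no overlap. Il7r, one of the 10, did not pass without the untreated (-0.99), LTbR agonist (-0.82) or combination library (-0.92). Ly6c2 did not pass with cells of other classes kept (-1.80), nor Satb1 with each cell counted once (-0.51).

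Of the 12 inhibitory receptor and exhaustion genes 4 were higher and none lower, beside 1.04% of all genes that were higher. Lag3, a receptor that binds class II molecules, stood at 397, 544, 713 and 690 CPM against 267, 174, 139 and 258 (log2 difference 1.46, SE 0.24, edgeR adjusted p = 0.0098). Rgs16 stood at 760, 855, 910 and 738 against 442, 364, 236 and 379 (1.23, SE 0.18, edgeR adjusted p = 0.00527). Tox, a factor of exhausted T cells (0.53, SE 0.11, edgeR adjusted p = 0.0278), and Pdcd1, which encodes PD-1 (0.71, SE 0.17, edgeR adjusted p = 0.0404), were the others. Lag3 and Rgs16 passed whichever library was left out. Tox did not pass without the untreated (0.55), LTbR agonist (0.46) or combination library (0.51), with each cell counted once (0.25) or in thinned cells (0.30), and Pdcd1 without the STING agonist (0.75), LTbR agonist (0.54) or combination library (0.65). With DESeq2 neither passed (0.54 and 0.73). Of the list, 2 genes passed without the LTbR agonist library and 2 without the combination library.

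Of the 11 cytotoxic genes tested, Prf1, the pore-forming protein perforin (log2 difference 1.35, SE 0.28, edgeR adjusted p = 0.027), and Gzmf, a granzyme (3.53, SE 0.81, edgeR adjusted p = 0.0392), were higher. Gzmf was at 0 in Trav14-3 cells of the combination library, and 758 of its UMIs came from Trav14-3 cells of the STING agonist library. Of the 9 cell cycle genes Mki67 was higher (0.83, SE 0.2, edgeR adjusted p = 0.0458), and of the 14 of receptor signalling Cd5, which damps receptor signals, was lower (-1.18). Each of these 4 calls was lost when 1 of several libraries was left out. Prf1 did not pass without the STING agonist (1.31) or combination library (1.44) or in thinned cells (0.88), and Gzmf without the untreated (4.34) or combination library (3.73), with DESeq2 (2.40) or with cells of other classes kept (3.64). Mki67 did not pass without the untreated (0.83), STING agonist (0.60) or combination library (0.81), with DESeq2 (0.85), with each cell counted once (0.65) or with cells of other classes kept (0.94). Cd5 did not pass without the untreated (-0.90), STING agonist (-1.25) or LTbR agonist library (-1.24), or with DESeq2 (-1.11). Cd3g also chose the T cells, and its difference (0.57) is no result.

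A class II gene and markers of other cell classes were also compared in this contrast, and the source of their UMIs was not tested. The class II gene H2-Ab1 stood at 33.9, 152, 38.7 and 96.3 CPM with Trav14-3 and at 181, 593, 375 and 159 with another Trav gene (log2 difference -2.28, SE 0.27, edgeR adjusted p = 0.00149). The 8 macrophage markers summed to 34.9 to 80.3 against 73.1 to 153, the 8 neutrophil markers to 48.2 to 155 against 93.4 to 333, and the 8 B and plasma cell markers to 1.47 to 96.3 against 5.28 to 340. Carcinoma markers summed to 11.6 to 36.8 against 19.9 to 31.7. They were higher with Trav14-3 in the untreated (36.8 against 22.4) and combination (32.1 against 27.5) libraries and lower in the others. Natural killer cell markers summed to 177 to 474 against 206 to 670. At least 5 of the 8 B and plasma cell markers were at 0 in every group, and their part in the result was not tested.

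The treatments were compared with the untreated library by the share of a V gene among called CD8 cells. Genes were ranked by the difference of the shares in percentage points. With the STING agonist the 3 largest falls, among 10 genes with at least 20 cells, were Trbv13-3 (ratio 0.133, counting interval 0.0598 to 0.294), Trav14-3 (0.780, 0.575 to 1.06) and Trbv15 (0.135, 0.0330 to 0.549). The 3 largest rises were Trbv1 (3.46, 1.46 to 8.17), Trbv19 (2.45, 1.197 to 5.02) and Trbv3 (1.41, 0.817 to 2.45). The intervals of Trav14-3 and Trbv3 included 1, and in cells thinned to 1000 UMIs these ratios were 1.15 and 3.80. The thinned Trav shares rest on 19 called CD8 cells with the STING agonist and 24 with the LTbR agonist. The ratio of Trbv13-3 was 0.0558 with cells holding a second Trbv gene left out.

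With the LTbR agonist the largest falls in points, among 14 genes, were again Trbv13-3 (0.217, 0.144 to 0.328), Trav14-3 (0.745, 0.564 to 0.985) and Trbv15 (0.496, 0.291 to 0.846). The ratio of Trav14-3 turned to 1.18 in cells thinned to 1000 UMIs. The largest rises were Trbv19 (5.17, 3.01 to 8.88), Trbv12-2 (1.61, 1.04 to 2.49) and Trbv1 (2.96, 1.39 to 6.31). In cells thinned to 1000 UMIs the ratio of Trbv19 was 11.7, and with at least 2 UMIs for a call that of Trbv13-3 was 0.134. With the combination, among 12 genes, they were falls of Trbv13-3 (0.0462, 0.0173 to 0.123), Trav14-3 (0.632, 0.439 to 0.911) and Trbv29 (0.443, 0.268 to 0.733) and rises of Trbv13-1 (4.36, 2.73 to 6.98), Trbv3 (2.91, 1.99 to 4.27) and Trav16 (2.44, 1.42 to 4.19). By ratio the order differs, since Trbv15 fell to 7 of 268 cells from 42 of 396, a ratio of 0.246. In thinned cells the ratio was 0.108 for Trbv29 and 4.39 for Trbv3, and with at least 2 UMIs for a call it was 0.421 for Trav14-3 and 6.0 for Trav16. All 3 comparisons share the untreated library, whose 128 Trbv13-3 cells enter every ratio of that gene.

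Summed UMIs of all T cells were compared for the V genes with enough counts, as a description. Of the members, 9, 10 and 7 had at least 200 UMIs over the 2 libraries compared, and 4, 9 and 4 of these were past 1.5-fold with the STING agonist, the LTbR agonist and the combination, beside 6.6%, 6.38% and 6.24% of all genes. Those past it were lower, apart from Trbv19 with the LTbR agonist at 28.5 against 14.6 CPM. Of all genes, 3.02%, 2.41% and 2.57% were lower and 3.59%, 3.97% and 3.67% higher. The choice of genes favours such differences. Trbv3, Trbv13-3, Trbv15, Trbv29 and Trav14d-3-dv8 reached the minimum through the untreated library alone (207 to 608 UMIs), among them all 4 that were lower with the combination (31 to 36 UMIs there), and Trbv19 through the LTbR agonist library (212 against 82 UMIs). Nothing is read from these counts about the V genes as a group. Per UMI of all V genes of the same chain, which removes the lower V gene level of the libraries with the LTbR agonist, 2 of 9, 5 of 10 and 6 of 7 were past 1.5-fold, and the directions differed. With the STING agonist Trbv13-3 and Trbv15 were lower. With the LTbR agonist the same 2 genes were lower and Trbv1, Trbv12-2 and Trbv19 higher. With the combination Trbv13-3, Trbv15, Trbv29 and Trav14d-3-dv8 were lower and Trbv3 and Trbv13-1 higher. These rest on the same choice of genes.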

How the data were processed

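Live CD45+ cells of 4 pools of KPC tumours were sorted and sequenced with a 10x Genomics 5′ kit. The authors deposited counts of UMIs per gene and cell, made with Cell Ranger 8.0.1 per the file headers; the submitters' notes name version 7.1.0 and the mm10 build, and 1735 of the 33696 gene identifiers are not in GENCODE M21, so no coordinates are given. The unit is raw counts. Libraries held 52109958 to 85855398 UMIs in 8730 to 16322 cells, and 304 of 54785 barcodes occurred in more than 1 library (1 of 5157 among T cells).

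Cells with 300 to 5000 genes and at most 6% mitochondrial UMIs were kept, as in the methods of the study. In place of a doublet caller, cells with at least 4 of 8 markers and 10 UMIs of macrophages, neutrophils, B and plasma cells or carcinoma cells were left out (7.75 to 12.5% of gated cells). Shares carry exact Clopper-Pearson intervals, and UMIs are not all independent molecules, so intervals cover counting error only. Ratios of shares carry log-normal intervals. Fits used edgeR 4.0.16 with TMM factors and filterByExpr in R 4.3.3, with DESeq2 1.42.0 as an alternative. Calls and fits were tested on simulated data.

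The fit of repeated pairs was planned for pairs at 5 or more times their expected number; 1 pair of 1 library reached this, so pairs of at least 5 cells were used. Members, lists and tests were chosen with earlier results of these data known. The rule for named genes took, per chain, the 6 genes with most cells, V genes called between CD4 and CD8 cells, the 3 largest rises and falls per treatment, the 3 leading CD8 pairs and the leading CD4 pair of each library, Trav11 and Trav1, and up to 5 called genes per list. Alternatives covered the UMIs for a call, the gate, depth, the co-receptor call, a second Trbv gene, the cell limits, pooling of copies, the pair minimum, normalization, filters and leaving out each library. Some items are not reported here.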

Additional observations from a re-analysis of the deposited data

Results flagged for a closer look

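The Trbv13-3 share differed between CD4 and CD8 cells in opposite directions in different libraries, with exact intervals that did not overlap within either library. In the untreated library the share of CD4 minus that of CD8 cells was -30.4 percentage points (3 of 158 against 128 of 396 cells). In the combination library it was 9.42 points (6 of 55 against 4 of 268 cells). The difference between libraries was not tested, since each treatment had 1 library, and the smaller one rests on 10 cells.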

How the results depend on the processing

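Depth was a limit, and treatments had 1 library each. Values are in the order untreated, STING agonist, LTbR agonist and combination where 4 are given. With at least 2 UMIs for a call, the share of T cells with a Trbv call was 43.2%, 39.1%, 15.9% and 12.0%, the 5 leading Trbv genes held 79.8% (untreated) and 75.2% (combination) of CD8 cells, Trav14-3 was at 48.0% (STING agonist) and 45.8% (LTbR agonist) of CD8 cells, and repeated pairs were at 0% with the LTbR agonist (of 8 cells) and 0% with the combination (of 4 cells, too few for a pair of 5). With at least 3 gate genes the Trbv call share was 69.1%, 62.3%, 43.7% and 37.6%. With cells thinned to 1000 UMIs it was 32.7%, 32.6%, 19.2% and 20.02%; the 5 leading Trbv genes held 79.1% (untreated), 65.6% (STING agonist) and 75.8% (combination) of CD8 cells and 60%, 60%, 74.2% and 76.2% of CD4 cells, Trav14-3 was at 52.6% (STING agonist) and 54.2% (LTbR agonist) of CD8 cells, the ratio of the Trav14-3 share, LTbR agonist over untreated, reversed to 1.18, and repeated pairs were at 0%, 0%, 0% and 0% of 19, 6, 4 and 3 cells, too few for a pair of 5 in the last 2 libraries. With pairs of at least 3 cells the repeated share was 70.9% (untreated) and 29.4% (STING agonist), and with at least 10 cells it was 0% (STING agonist), 22.2% (LTbR agonist) and 0% (combination). With V gene families as units the 5 leading families held 85.3%, 58.6%, 74.1% and 74.6% of CD8 cells and, with the LTbR agonist, 67.1% of CD4 cells.

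V genes past 1.5-fold in summed UMIs were 2 (STING agonist) and 5 (LTbR agonist) per UMI of all V genes of the chain (2 lower, and 2 lower and 3 higher), a setting chosen after seeing the data, and 7 (combination) with cells of other classes kept, of 9 tested in place of 7. Between CD4 and CD8 cells, V genes higher in CD4 cells numbered 1 of 8 tested when each cell with a UMI counted once, 11 of 96 with no filter (15 were tested in the report), and 3 to 5 without 1 library, and those higher in CD8 cells 8 of 96 with no filter. The shares of all genes called in these settings are not given, so these counts are not read against them. The contrasts of repeated pairs and of Trav14-3 were added after seeing the data. For repeated pairs, inhibitory receptor and exhaustion genes that were higher numbered 10 with pairs of at least 3 cells, 1 with DESeq2, 4 when each cell counted once, 8 with no filter, 5 without the largest pair of each library, and 1 to 9 without 1 library; naive and memory genes that were lower numbered 5 of 6 tested when each cell counted once. For Trav14-3 the first number was 2 with DESeq2, 8 with no filter, 0 of 2 tested in thinned cells and 2 to 4 without 1 library, naive and memory genes that were lower numbered 6 of 8 when each cell counted once, and Cd3g reversed to -0.030. In thinned cells no V gene passed the filter between CD4 and CD8 cells and repeated pairs could not be fitted. In all, 931 values were recomputed, of which 172 of the main results and 592 of the named genes kept their direction and call or moved by less than their interval or 1.5 times. The causes of the changes were not tested. Each library enters a fit with both sides, so the block of the fit is the library. No paired analysis was possible because each treatment group has 1 library, so that the groups share only the replicate number 1.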
